A study of Mus musculus with 23 samples.

Results

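The Schlafen genes form a family that in the mouse lies together on chromosome 11 and encodes proteins of 3 sizes: short forms (Slfn1, Slfn2), intermediate forms (Slfn3, Slfn4) and long forms with an added helicase-like part (Slfn5, Slfn8, Slfn9). The 7 members were chosen by symbol and are 7 of the 55401 genes counted. All 7 passed the filter on low counts, which kept 18083 genes. Schlafen genes are known as genes that immune cells switch on after interferon or bacterial ligands, and they take part in cell quiescence, in the cleavage or protection of transfer RNA, and in restriction of viruses. Macrophages sense lipopolysaccharide (LPS), a component of the outer membrane of Gram-negative bacteria, through Toll-like receptor 4, which switches on NF-kB and, through secreted interferon beta, the interferon response.

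RNA-seq was made from mouse macrophages grown from bone marrow (BMDMs), of the genotypes Selenow knock-out and wild-type. Selenow encodes selenoprotein W, a small selenium-containing protein. Cells were untreated (0 h) or had LPS at 100 ng/ml for 4, 8 or 24 h. The 11 labelled knock-out libraries are 3 each at 0, 4 and 8 h and 2 at 24 h, and the 12 wild-type libraries are 3 at each time. The strain, the age of the mice and the part of Selenow that was deleted are not given in the sources used here. Separate animals or cultures are not named for the libraries of a group, and p-values then measure only the spread between these libraries, which may be technical. Untreated cells were sampled at 0 h alone, and LPS and time in culture cannot be told apart. Libraries are named by their running numbers, 1 to 12 for wild-type and 13 to 23 for labelled knock-out.

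Libraries held 39001456 to 41819953 counted fragments. Levels are given as CPM, the count divided by the TMM-scaled library total. Where a library has no count of a gene, its level may still be as high as 0.0769 CPM of the unscaled total by counting error alone. This limit is higher in libraries whose total TMM scaling lowers. Selenow averaged over the 4 times was lower in labelled knock-out than in wild-type cells (log2 fold change -0.70 ± 0.19 SE, adjusted p = 0.0306, edgeR quasi-likelihood test). It was 106.5 CPM in library 13 at 0 h, 191.3 CPM in library 16 at 4 h, 260.4 CPM in library 19 at 8 h and 180.5 CPM in library 22 at 24 h. Libraries 13, 16 and 22 lay inside and library 19 below the wild-type ranges of 103.2 to 132.6 CPM at 0 h, 181.1 to 202.5 CPM at 4 h, 302.6 to 326.7 CPM at 8 h and 161.4 to 200.8 CPM at 24 h. The other 7 labelled knock-out libraries had 39.4 to 134.7 CPM, each below every wild-type library of its time. In all, 8 of 11 labelled knock-out libraries lay below every wild-type library of their time and 3 did not, and every direction between genotypes below rests on the label. A second set of 8 libraries (labelled knock-out 14, 17, 20 and 23 and wild-type 3, 6, 9 and 12, 1 per group) also stood apart. It was picked from deviations from the group means over 10415 genes. In its 4 same-time pairs across genotypes these deviations correlated at r of 0.71 to 0.77. Pairs of the other libraries gave 0.22 to 0.70, and pairs across the sets -0.76 to -0.39. Deviations from a group mean cancel within the group, and the set was picked by them. The signs of these ranges are therefore no separate evidence for the set. Labelled knock-out libraries 22 and 23 at 24 h mirror each other (r of -0.71 and 0.71 with library 12). Which of them stood apart cannot be told. The 10 macrophage markers, among them Csf1r, Adgre1 and Cd68, were detected in every group, with summed levels of 14890 to 28890 CPM in labelled knock-out and 13780 to 26840 CPM in wild-type libraries. Of 10 T and NK cell genes, Cd3d, Cd3e and Cd3g did not exceed 0.062 CPM in any library, and the only ones above 1 CPM were Lck (up to 23.8 CPM) and Cd28 (up to 158.7 CPM). Of the 3 tested, at 4 h over 0 h Lck was called higher (5.85 ± 0.41 in labelled knock-out and 4.65 ± 0.38 in wild-type cells) and Cd28 lower (-3.64 ± 0.66 and -3.47 ± 0.65), and none was called between genotypes on average.

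Within the annotation of GRCm38, the 7 members span chr11:82951349-83215154, a stretch of 263.8 kb. Slfn5 (ENSMUSG00000054404, chr11:82951349-82964840, plus strand) opens the cluster and is followed by Slfn9 (ENSMUSG00000069793, chr11:82978390-82991830, minus strand) and Slfn8 (ENSMUSG00000035208, chr11:83002158-83020810, minus strand). Slfn2 (ENSMUSG00000072620, chr11:83065112-83070678), Slfn1 (ENSMUSG00000078763, chr11:83116849-83122670), Slfn4 (ENSMUSG00000000204, chr11:83175186-83190216) and Slfn3 (ENSMUSG00000018986, chr11:83191330-83215154) follow on the plus strand. The pseudogene Slfn10-ps lies between Slfn8 and Slfn2, and Slfn14 lies beyond Slfn3. Some members are near-copies of each other: transcripts of Slfn8 and Slfn9 were 92.6% identical over 3496 aligned bases, and those of Slfn3 and Slfn4 were 92.5% identical over 1713. Since reads with several alignments were not counted, near-identical stretches give few counts and their assignment is uncertain. Of all 100-base words in a member's transcripts, 0% of those of Slfn1, 0.13% of Slfn2, 0.27% of Slfn4, 2.92% of Slfn3, 3.38% of Slfn8, 3.71% of Slfn9 and 6.4% of Slfn5 also occurred in another gene. For Slfn5, 388 of these 403 words occurred in Slfn5os. Slfn5 overlaps its antisense gene Slfn5os in 559 of its 6326 exonic bases, and counting ignored strand, so reads there were counted for both genes.

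Promoter stretches are shown because the genes of short and intermediate forms share 1 word upstream of their start and those of long forms share another motif. They are from RefSeq windows of 250 bases before to 50 after the gene start (build GRCm38.p6), given 5′ to 3′ on the strand of the gene, and lie upstream of that start. In the first 4, capitals mark ACTTCCTGG, which holds the ETS core ACTTCCT. In the last 3, capitals mark the core of the interferon-stimulated response element, read as GAAA, any 2 bases and GAAA again, or the reverse complement.
Slfn1: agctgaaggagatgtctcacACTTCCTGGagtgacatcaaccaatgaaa
Slfn2: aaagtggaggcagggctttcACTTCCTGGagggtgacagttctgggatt
Slfn3: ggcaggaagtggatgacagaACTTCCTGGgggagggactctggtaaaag
Slfn4: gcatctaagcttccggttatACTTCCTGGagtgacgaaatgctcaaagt
Slfn5: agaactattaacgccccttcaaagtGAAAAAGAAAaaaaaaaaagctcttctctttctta
Slfn8: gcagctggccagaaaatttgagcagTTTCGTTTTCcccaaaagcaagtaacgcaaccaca
Slfn9: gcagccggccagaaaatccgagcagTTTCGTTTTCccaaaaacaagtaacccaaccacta
These lie at chr11:83116726-83116774 (Slfn1), chr11:83065037-83065085 (Slfn2), chr11:83191268-83191316 (Slfn3), chr11:83175093-83175141 (Slfn4) and chr11:82951922-82951981 (Slfn5) on the plus strand. The stretch of Slfn5 lies upstream of its RefSeq start but inside the span that the counted annotation gives this gene. Those of Slfn8 (chr11:83020824-83020883) and Slfn9 (chr11:82991841-82991900) are on the minus strand. The capitals end 65 bases before the start in Slfn1, 46 in Slfn2, 33 in Slfn3, 64 in Slfn4, 145 in Slfn5, 38 in Slfn8 and 35 in Slfn9.

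All 7 members matched a window, and both strands were searched in 32544 distinct windows of the same length. For Slfn8 only its first listed window was used, and any further one was left out. The counts of members with a motif, and the stretch shown for Slfn8, rest on that choice. The word ACTTCCTGG was taken as the longest one common to the windows of Slfn1, Slfn2, Slfn3 and Slfn4. Its presence in these 4 of 7 members was fixed by that choice, and it was in 0.842% of all windows. The shorter ETS core ACTTCCT lies inside this word and so was in the same 4 members, and it was in 9.27% of windows. The interferon-stimulated response element core was in 3 of 7 members (Slfn5, Slfn8, Slfn9) and in 3.45% of windows. The gamma-activated sequence TTCNNNGAA was in 0 of 7 and in 8.33% of windows. The NF-kB consensus was in 2 of 7 members (Slfn1, Slfn9) and in 8.49% of windows. Slfn1 and Slfn4 shared the longer run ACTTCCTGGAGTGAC, and Slfn8 and Slfn9 shared TCTGGCAGCATGCCTGCAGC, the longest run in common to any pair. A match describes the letters only, and these motifs were chosen after the promoters had been seen.

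**Figure D1:**
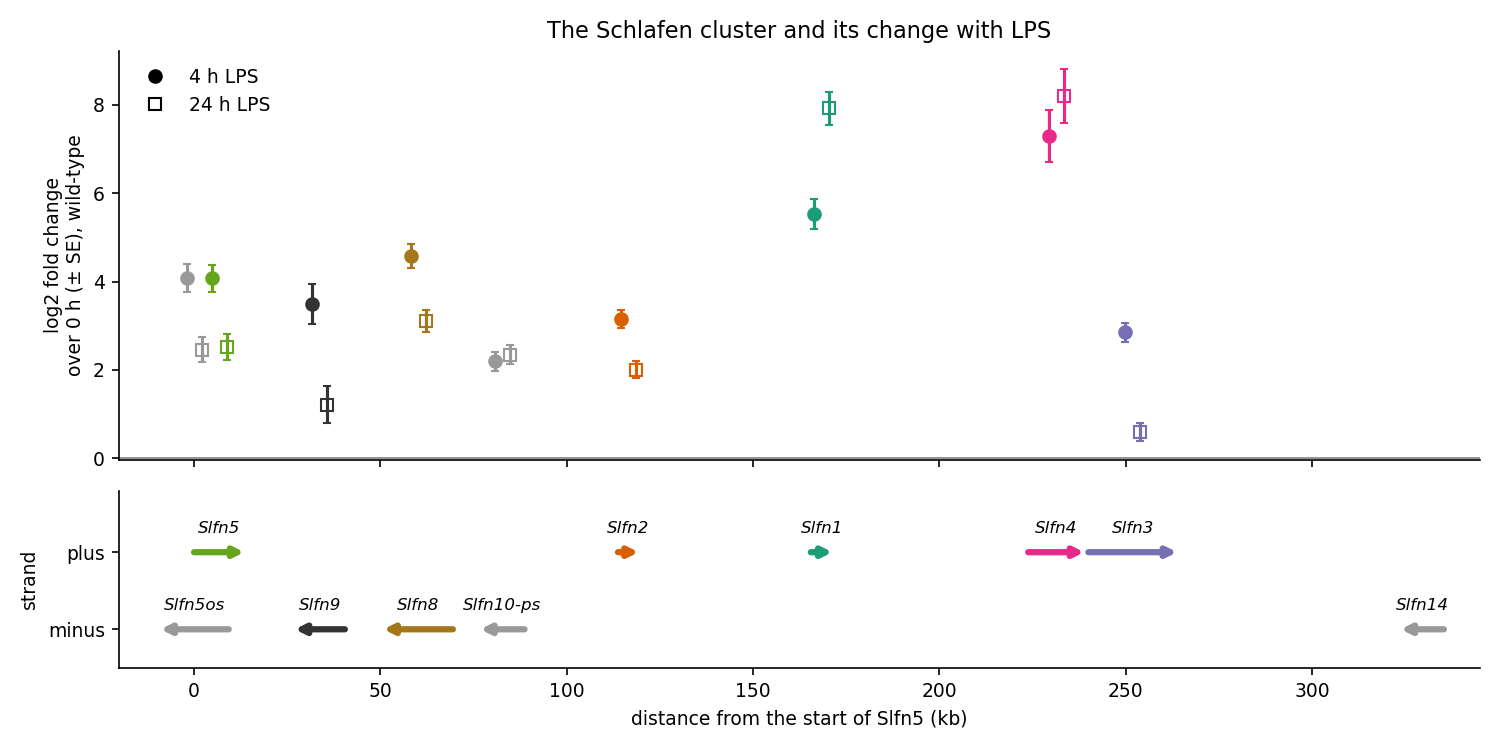
Below, the Schlafen genes drawn to scale by strand against distance from the start of Slfn5 (x axis, kb), with genes that are no member in grey; above each gene, its log2 fold change over 0 h in wild-type cells (y axis, SE bars) at 4 h (circles) and 24 h (squares). Slfn1 and Slfn4 have the largest changes at both times, while Slfn3, beside Slfn4, has the smallest of the members.

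All 7 members were higher after 4 and 8 h of LPS than at 0 h in both genotypes. Called (adjusted p under 0.05) as higher at 4, 8 and 24 h over 0 h were 7, 7 and 6 members in labelled knock-out cells, where 28%, 28.3% and 22.6% of all genes tested were called higher. In wild-type cells the counts were 7, 7 and 7, against 28.2%, 30.3% and 27.8% of all genes. Their median log2 fold changes were 3.88, 2.76 and 1.92 in labelled knock-out and 4.07, 3.32 and 2.52 in wild-type cells. The median of all genes stayed between -0.12 and 0.00 in these comparisons. Each later time of a genotype was set against the same 0 h libraries. TMM, which assumes that most genes do not change, gave factors of 1.237 to 1.364 at 0 h and 0.7857 to 0.9142 at 4 h. With the total count alone, all 42 folds of mean level were above 1, from 1.19 to 228.7, all without a test. Slfn2 at 4 h, for example, was 5.68 times its 0 h level in labelled knock-out and 5.79 times in wild-type cells, against 8.88 and 8.87 times with TMM. The smallest in labelled knock-out cells was that of Slfn9 at 24 h, 1.35 times its 0 h level, and the smallest in wild-type cells was that of Slfn3 at 24 h, 1.19 times.

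**Figure D2:**
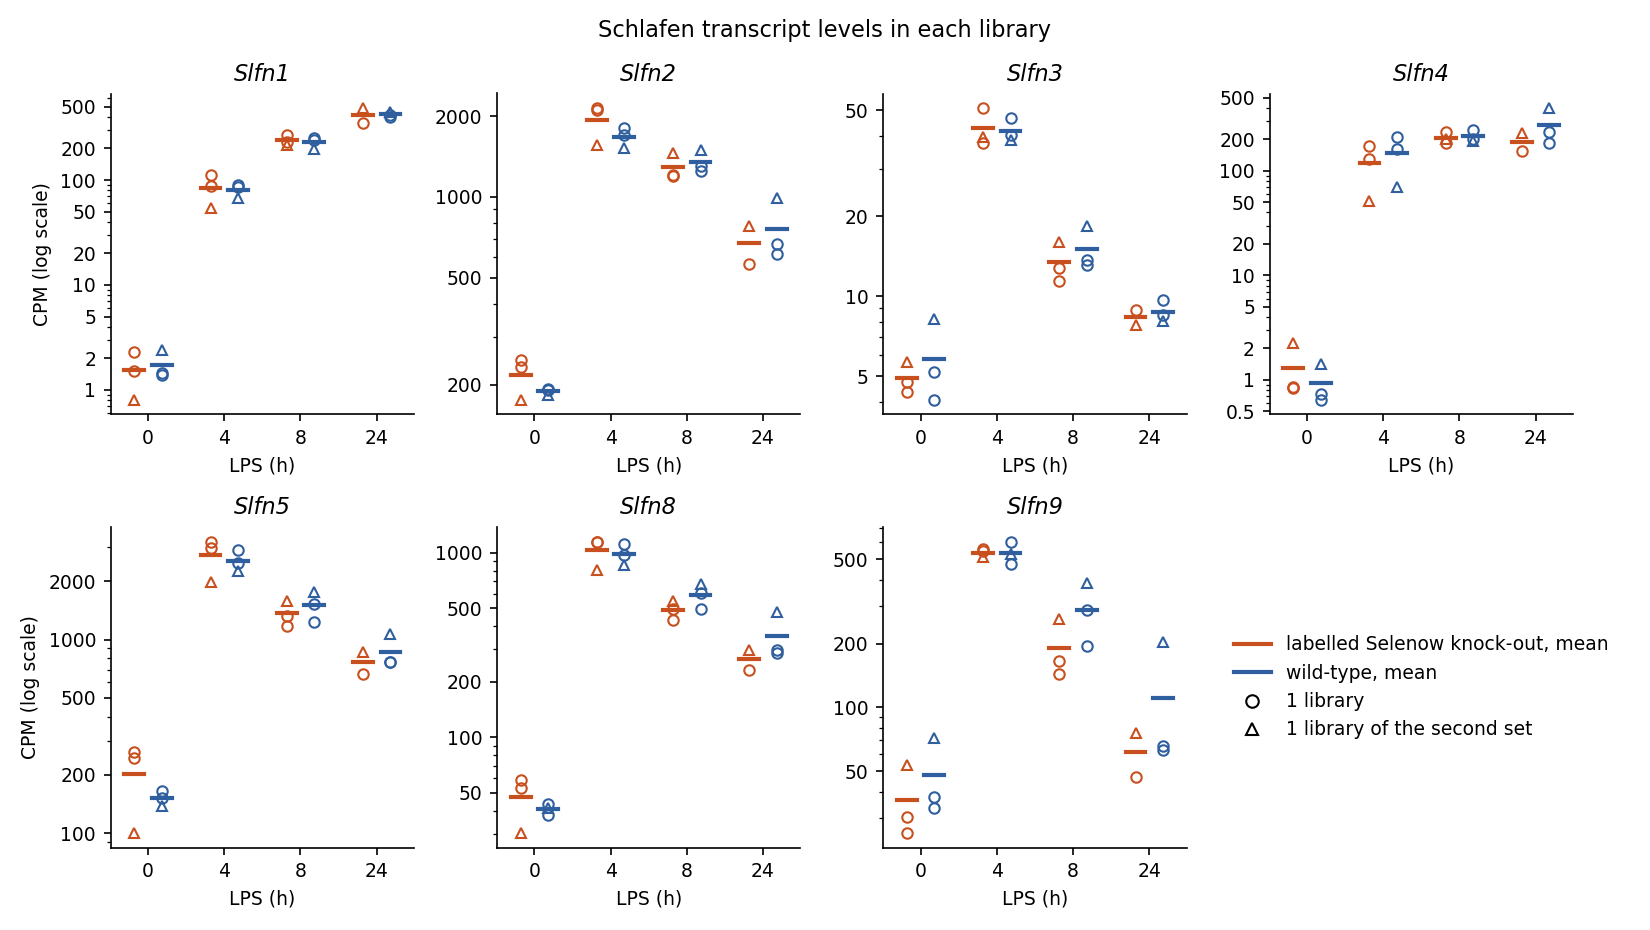
Level of each member (y axis, TMM-scaled CPM, log scale) in every library by hours of LPS (x axis, evenly spaced), labelled knock-out left of wild-type, with bars for group means and triangles for the second set of libraries. All 7 members lie higher at 4 h than at 0 h in every library, Slfn1 goes on rising to 24 h, and Slfn2, Slfn3, Slfn5, Slfn8 and Slfn9 are highest at 4 h.

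Slfn1, a short form known to slow the growth of thymocytes in mice, was nearly silent before LPS and reached its highest level at 24 h. At 0 h Slfn1 had 1.53, 0.806 and 2.30 CPM in labelled knock-out and 1.46, 1.38 and 2.39 CPM in wild-type libraries. At 4 h Slfn1 had 111, 53.8 and 87.8 CPM in labelled knock-out and 89.45, 85.4 and 67.0 CPM in wild-type libraries. Both genotypes were far above every 0 h library. At 8 h Slfn1 had 233, 218 and 267 CPM in labelled knock-out and 252, 239 and 195.5 CPM in wild-type libraries. At 24 h Slfn1 had 351 and 485 CPM in labelled knock-out and 419, 402 and 449.5 CPM in wild-type libraries. No library of 1 time overlapped one of another time, while the genotypes overlapped at each time. The log2 fold change over 0 h was 5.77 ± 0.34, 7.28 ± 0.36 and 8.08 ± 0.38 (SE) at 4, 8 and 24 h in labelled knock-out cells, and 5.53 ± 0.34, 7.03 ± 0.36 and 7.92 ± 0.37 in wild-type cells, with every adjusted p at or below 1.42e-10. At 8 over 4 h it rose by 1.51 ± 0.28 in labelled knock-out (adjusted p = 0.000207) and 1.504 ± 0.277 in wild-type cells (adjusted p = 0.000223). At 24 over 8 h it rose by 0.81 ± 0.30 in labelled knock-out cells (adjusted p = 0.0436), a call that DESeq2 did not make (adjusted p = 0.058) and that was lost in 12 of 23 fits without 1 library, and by 0.89 ± 0.27 in wild-type cells (adjusted p = 0.0128), lost without library 9 (adjusted p = 0.0556). As a ratio of means, the 24 h level was 270.3 times that at 0 h in labelled knock-out and 242.8 times in wild-type cells.

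Slfn2, a short form that in mice keeps T cells and monocytes quiescent and protects transfer RNA from cleavage in T cells, was the member with the highest level per kb in all 8 groups. At 0 h Slfn2 had 232, 176 and 246 CPM in labelled knock-out and 192.5, 190.4 and 184 CPM in wild-type libraries. At 4 h Slfn2 had 2112, 1557 and 2143 CPM in labelled knock-out and 1700, 1801 and 1526 CPM in wild-type libraries. The 4 h libraries all exceeded the 0 h libraries. At 8 h Slfn2 had 1212, 1460 and 1201 CPM in labelled knock-out and 1308, 1252 and 1501 CPM in wild-type libraries. At 24 h Slfn2 had 563 and 782 CPM in labelled knock-out and 668, 614 and 992 CPM in wild-type libraries. The 24 h libraries lay below the 8 h ones and above the 0 h ones, and library 12 was the high one of its group. Over 0 h, Slfn2 changed on the log2 scale by 3.15 ± 0.20, 2.57 ± 0.19 and 1.62 ± 0.20 in labelled knock-out cells, and 3.15 ± 0.20, 2.84 ± 0.20 and 2.005 ± 0.190 in wild-type cells, with adjusted p at or below 4.25e-06. The change at 8 over 4 h was -0.59 ± 0.18 in labelled knock-out (adjusted p = 0.0135), lost in 4 fits that left out library 16, 18, 19 or 21 (adjusted p up to 0.0537), and -0.31 ± 0.18 in wild-type cells (adjusted p = 0.179). It fell at 24 over 8 h by 0.94 ± 0.21 in labelled knock-out (adjusted p = 0.00225), lost without library 22 (adjusted p = 0.0658), and by 0.84 ± 0.18 in wild-type cells (adjusted p = 0.00125). At 24 h 34.7% of the highest mean was left in labelled knock-out and 45.2% in wild-type cells.

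Slfn3, an intermediate form studied in T cell and intestinal epithelial differentiation of rodents, was highest at 4 h and was lower at each later time. At 0 h Slfn3 had 4.76, 5.64 and 4.37 CPM in labelled knock-out and 5.17, 4.08 and 8.19 CPM in wild-type libraries. At 4 h Slfn3 had 50.9, 39.6 and 37.55 CPM in labelled knock-out and 46.8, 40.3 and 38.7 CPM in wild-type libraries. Every 4 h library exceeded every 0 h library. At 8 h Slfn3 had 11.4, 16.02 and 12.8 CPM in labelled knock-out and 13.7, 13.1 and 18.4 CPM in wild-type libraries. At 24 h Slfn3 had 8.90 and 7.81 CPM in labelled knock-out and 8.50, 9.665 and 8.08 CPM in wild-type libraries. At 24 h the lowest wild-type library (8.08 CPM) was under the highest at 0 h (8.19 CPM). The log2 fold change over 0 h was 3.11 ± 0.22, 1.44 ± 0.21 and 0.76 ± 0.23 in labelled knock-out cells (adjusted p up to 0.0126). In wild-type cells it was 2.85 ± 0.22, 1.37 ± 0.21 and 0.59 ± 0.21 (adjusted p up to 0.0232). The 24 h call was lost in labelled knock-out cells without library 22 (adjusted p = 0.0894), and in wild-type cells without library 1, 2 or 11 (adjusted p up to 0.133). At 8 over 4 h the log2 level fell by 1.67 ± 0.21 in labelled knock-out (adjusted p = 3.55e-06) and by 1.48 ± 0.21 in wild-type cells (adjusted p = 1.41e-05). At 24 over 8 h it fell by 0.68 ± 0.24 in labelled knock-out (adjusted p = 0.0325), lost without library 20, 22 or 23, and by 0.78 ± 0.21 in wild-type cells (adjusted p = 0.00525).

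Slfn4, an intermediate form regulated during macrophage activation and differentiation, also started near 0 and had a wide spread between the libraries of a group at 4 h. At 0 h Slfn4 had 0.841, 2.24 and 0.847 CPM in labelled knock-out and 0.730, 0.646 and 1.42 CPM in wild-type libraries. At 4 h Slfn4 had 171, 51.3 and 131 CPM in labelled knock-out and 212, 161 and 69.8 CPM in wild-type libraries. The low 4 h libraries were 17 and 6, both of the second set. At 8 h Slfn4 had 184.5, 203 and 237 CPM in labelled knock-out and 247, 201 and 192 CPM in wild-type libraries. At 24 h Slfn4 had 153.5 and 228 CPM in labelled knock-out and 238, 186 and 399 CPM in wild-type libraries. Every LPS library exceeded every 0 h library, while in wild-type cells the 4, 8 and 24 h ranges overlapped. Over 0 h, Slfn4 changed on the log2 scale by 6.48 ± 0.57, 7.30 ± 0.58 and 7.18 ± 0.59 in labelled knock-out cells, and 7.30 ± 0.59, 7.84 ± 0.60 and 8.20 ± 0.61 in wild-type cells, with adjusted p at or below 4.08e-08. Steps among LPS times did not pass the test, with 0.82 ± 0.44 at 8 over 4 h in labelled knock-out (adjusted p = 0.131) and 0.53 ± 0.43 in wild-type cells (adjusted p = 0.332). At 24 over 8 h the change was -0.13 ± 0.49 in labelled knock-out (adjusted p = 0.868) and 0.36 ± 0.43 in wild-type cells (adjusted p = 0.526). The sign at 24 over 8 h was reversed without library 22 in labelled knock-out (0.14) and without library 12 in wild-type cells (-0.02).

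Slfn5, a long form that acts as a transcriptional corepressor and restricts herpes simplex virus in human cells, had the highest CPM of the members at 4 h. At 0 h Slfn5 had 244, 99.7 and 261 CPM in labelled knock-out and 164, 151.5 and 137 CPM in wild-type libraries. At 4 h Slfn5 had 3209, 1973 and 2976 CPM in labelled knock-out and 2489, 2889 and 2261 CPM in wild-type libraries. The 0 h library 14 of the second set was the lowest of its group. At 8 h Slfn5 had 1179, 1591 and 1324 CPM in labelled knock-out and 1523, 1235 and 1755 CPM in wild-type libraries. At 24 h Slfn5 had 667 and 861 CPM in labelled knock-out and 764, 764 and 1065 CPM in wild-type libraries. The 4 h libraries exceeded the 8 h ones, which exceeded the 24 h ones, and all exceeded the 0 h libraries. The log2 fold change over 0 h was 3.75 ± 0.30, 2.76 ± 0.29 and 1.92 ± 0.30 in labelled knock-out cells, and 4.07 ± 0.31, 3.32 ± 0.30 and 2.52 ± 0.29 in wild-type cells, with adjusted p at or below 4.97e-05. At 8 over 4 h the log2 level fell by 0.99 ± 0.27 in labelled knock-out (adjusted p = 0.00576) and by 0.76 ± 0.27 in wild-type cells (adjusted p = 0.0284). It fell at 24 over 8 h by 0.84 ± 0.31 in labelled knock-out (adjusted p = 0.0436) and by 0.80 ± 0.27 in wild-type cells (adjusted p = 0.0229). The labelled knock-out call at 24 over 8 h was lost in 8 of 23 fits that left out 1 library, and the wild-type calls were lost without library 4, 5, 7 or 8 at 8 over 4 h and without library 7, 9, 10 or 11 at 24 over 8 h. The antisense gene Slfn5os changed by 3.77 ± 0.30 at 4 h in labelled knock-out and 4.08 ± 0.31 in wild-type cells, and could not be told from Slfn5 in the shared bases.

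Slfn8, a long form with a close copy in Slfn9, had the largest log2 rise among the long forms at 4 h. At 0 h Slfn8 had 53.35, 30.25 and 58.9 CPM in labelled knock-out and 43.6, 38.0 and 41.3 CPM in wild-type libraries. At 4 h Slfn8 had 1148, 808 and 1147 CPM in labelled knock-out and 969.8, 1116 and 862 CPM in wild-type libraries. Every 4 h library was above every library of the other times. At 8 h Slfn8 had 431, 546 and 493 CPM in labelled knock-out and 606, 493 and 679.8 CPM in wild-type libraries. At 24 h Slfn8 had 231 and 297 CPM in labelled knock-out and 296, 285 and 477 CPM in wild-type libraries. Within a genotype no 24 h library reached an 8 h one. Over 0 h, Slfn8 changed on the log2 scale by 4.44 ± 0.27, 3.37 ± 0.25 and 2.47 ± 0.26 in labelled knock-out cells, and 4.58 ± 0.27, 3.86 ± 0.26 and 3.11 ± 0.25 in wild-type cells, with adjusted p at or below 5.37e-07. At 8 over 4 h it fell by 1.08 ± 0.23 in labelled knock-out (adjusted p = 0.000891) and by 0.73 ± 0.23 in wild-type cells (adjusted p = 0.0145). At 24 over 8 h it fell by 0.89 ± 0.26 in labelled knock-out (adjusted p = 0.0141) and by 0.75 ± 0.23 in wild-type cells (adjusted p = 0.0131). The wild-type call at 8 over 4 h was lost without library 5 or 8 (adjusted p up to 0.0708). The 24 over 8 h call was lost in labelled knock-out cells without library 22 and in wild-type cells without library 9, 10 or 11.

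Slfn9, the near-copy of Slfn8, was also highest at 4 h, and 3 of 5 libraries at 24 h lay within the 0 h range of their genotype. At 0 h Slfn9 had 30.5, 53.4 and 25.5 CPM in labelled knock-out and 37.9, 33.6 and 72.0 CPM in wild-type libraries. At 4 h Slfn9 had 557, 509.5 and 545 CPM in labelled knock-out and 477, 605 and 530.2 CPM in wild-type libraries. Every 4 h library was above every library of the other times. At 8 h Slfn9 had 144, 259.7 and 165 CPM in labelled knock-out and 287, 194 and 384 CPM in wild-type libraries. At 24 h Slfn9 had 47.1 and 75.6 CPM in labelled knock-out and 65.6, 62.6 and 204 CPM in wild-type libraries. Library 12, of the second set, was the high one at 24 h, while libraries 10, 11 and 22 lay within the 0 h range. The log2 fold change over 0 h was 3.88 ± 0.46 at 4 h, 2.38 ± 0.43 at 8 h and 0.75 ± 0.45 at 24 h in labelled knock-out cells, where the last was not called (adjusted p = 0.193). In wild-type cells it was 3.49 ± 0.45, 2.59 ± 0.43 and 1.21 ± 0.42, with an adjusted p of 0.0192 at 24 h, a call lost without library 12 (0.42, adjusted p = 0.344), 1 or 2. At 8 over 4 h it fell by 1.503 ± 0.418 in labelled knock-out (adjusted p = 0.00625), and was -0.90 ± 0.41 in wild-type cells (adjusted p = 0.0817). It fell at 24 over 8 h by 1.63 ± 0.49 in labelled knock-out (adjusted p = 0.0147), lost without library 20 or 22, and by 1.38 ± 0.42 in wild-type cells (adjusted p = 0.0116), lost without library 9, 10 or 11.

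**Figure D3:**
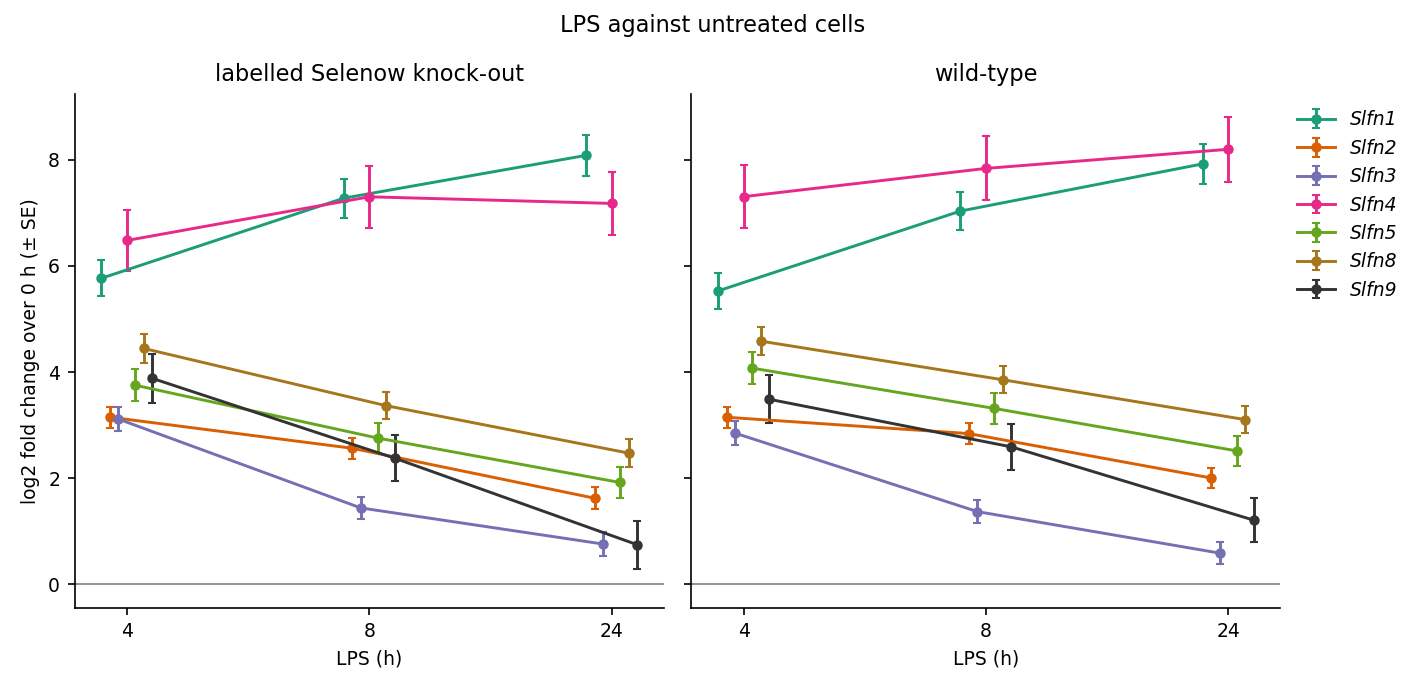
Log2 fold change over 0 h (y axis) of the 7 members at 4, 8 and 24 h of LPS (x axis, evenly spaced) with SE bars, labelled knock-out left of wild-type. Slfn1 and Slfn4 have the largest changes at every time, and Slfn3 and Slfn9 the smallest at 24 h.

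Between 4 and 8 h, 1 member was called higher (Slfn1) and 5 lower in labelled knock-out cells, where 24.4% of all genes were called higher and 22.8% lower. In wild-type cells 1 was higher (Slfn1) and 3 lower (Slfn3, Slfn5, Slfn8), against 24% and 22.8% of all genes. Between 8 and 24 h, 1 was higher and 5 lower in labelled knock-out cells (17.9% and 16.8% of all genes), and 1 was higher and 5 lower in wild-type cells (23.1% and 21.9%). Slfn4 was the member called in none of these 4 steps. Leaving out libraries 13, 16, 19 and 22 leaves 1 labelled knock-out library at 24 h, which is assumed to vary like the other groups. Fewer members, and also fewer of all genes, were then called at both steps in labelled knock-out cells. The median log2 change of the members at 24 over 8 h was -0.84 in labelled knock-out and -0.78 in wild-type cells, against 0.02 and 0.03 over all genes.

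Levels per exonic kb allow members to be compared. Slfn2 was at 131 CPM per kb in labelled knock-out and 113.5 CPM per kb in wild-type cells at 0 h, and at 1164 and 1007 CPM per kb at 4 h. Slfn5 followed with 429.9 CPM per kb in labelled knock-out and 402.5 CPM per kb in wild-type cells at 4 h, and Slfn8 had 253 and 240.2 CPM per kb. Slfn3 had the lowest level per kb in every LPS group, at 12.5 CPM per kb in labelled knock-out and 12.3 CPM per kb in wild-type cells at 4 h. Slfn1 and Slfn4 were under 1 CPM per kb at 0 h, and at 24 h Slfn1 reached 224 CPM per kb in labelled knock-out and 227 CPM per kb in wild-type cells. Summed over the 7 members, libraries had 4993 to 7359 CPM in labelled knock-out and 5355 to 6698 CPM in wild-type cells at 4 h. At 0 h the sums were 367.9 to 599.6 CPM in labelled knock-out and 419.6 to 446.3 CPM in wild-type cells. In these bulk samples, fewer cells of a type and less RNA per cell cannot be told apart.

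At the same time, the ranges of the genotypes overlapped for every member. In the order of mean levels they were neighbours, except for Slfn4 at 24 h. For Slfn1, Slfn2 and Slfn5, the times themselves did not overlap. Slfn3 and Slfn9 at 24 h overlapped 0 h, the LPS times of Slfn4 overlapped each other in part, Slfn9 in wild-type cells overlapped between 8 h (194.2 to 384.3 CPM) and 24 h (62.6 to 204.2 CPM), and Slfn8 and Slfn9 at 8 h in labelled knock-out cells overlapped 24 h in wild-type cells. The profiles of Slfn5 and Slfn8 over the 8 groups were the nearest pair of members, with a mean absolute difference of 0.21 (log2, centred). Those of Slfn2 and Slfn5 differed by 0.22. Slfn1 and Slfn4 differed by 0.48, and Slfn1 and Slfn3 by 2.61, the most of any pair.

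Across all 9345 genes compared, Slfn5os was nearest to Slfn5 (0.04), which shares its reads in part, and was followed by Skil (0.07) and F11r (0.09). Trex1 and Atrip, which overlap and so are uncertain, lay at 0.07 and 0.08 from Slfn2, and Bcl3 at 0.10. The nearest to Slfn1 was Pdpn (0.37), then Ccl8 (0.42) and Flrt3 (0.45). Pdpn (0.32), Upp1 (0.35) and Ccl8 (0.36) were nearest to Slfn4. Slfn3 lay nearest to Stk38l (0.08), Tent4a (0.09) and Sap30 (0.10). Slfn8 lay nearest to Ddx60 (0.17), an interferon-induced helicase-like gene, and then to Pfkfb3 (0.18) and Gvin1 (0.18). Slfn9 lay nearest to Kremen1 (0.17), Mier3 (0.18) and Clic4 (0.18). These are mean absolute differences of centred log2 CPM over 8 groups and carry no test.

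Other genes of the pathway are given for scale. Of 30 interferon-stimulated genes, 30 were called higher at 4, 8 and 24 h over 0 h in both genotypes, with medians of 5.30, 4.89 and 3.13 in labelled knock-out and 5.21, 5.08 and 3.86 in wild-type cells. Between 8 and 24 h, 27 of 30 were called lower in labelled knock-out and 23 of 30 in wild-type cells, where 16.8% and 21.9% of all genes were. Of 14 genes of interferon signalling, 13, 13 and 11 were called higher at the 3 times in labelled knock-out and 13, 14 and 12 in wild-type cells. Of 12 early NF-kB targets, 12, 12 and 11 were called higher at the 3 times in labelled knock-out and 12 at each time in wild-type cells. Over all genes, 28%, 28.3% and 22.6% were called higher at these times in labelled knock-out and 28.2%, 30.3% and 27.8% in wild-type cells. Of 6 genes of transfer RNA cleavage and methylation, 1 rose and 2 fell at 4 h in labelled knock-out and in wild-type cells, where 34.1% and 34.8% of all genes were called lower. Their medians were 0.18 in labelled knock-out and 0.00 in wild-type cells. Nsun2, a transfer RNA methyltransferase, rose by 1.09 ± 0.20 at 4 h in labelled knock-out (adjusted p = 8.95e-05) and by 1.05 ± 0.20 in wild-type cells (adjusted p = 0.000134). Of 12 proliferation genes, 10 were lower at 24 h in labelled knock-out, where 20.8% of all genes were called lower, and 11 in wild-type cells, where 27.3% were.

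Within 500 kb of the cluster lie 60 further genes, of which 29 were tested. These include Slfn5os, which shares reads with Slfn5, and Slfn10-ps. At 4 h over 0 h, 22 rose and 4 fell in labelled knock-out cells, where 28% of all genes were called higher and 34.1% lower. In wild-type cells 21 rose and 3 fell, against 28.2% and 34.8% of all genes. The chemokine genes Ccl5, Ccl4 and Ccl3 were among those that rose. Ccl5 rose by 9.47 ± 0.64 in labelled knock-out (adjusted p = 4.51e-10) and by 9.39 ± 0.63 in wild-type cells (adjusted p = 4.52e-10). Among the other Schlafen genes, Slfn10-ps rose by 1.75 ± 0.21 in labelled knock-out (adjusted p = 8.56e-07) and 2.20 ± 0.22 in wild-type cells (adjusted p = 5.4e-08), and is uncertain because its transcript is 92.2% identical to that of Slfn8. Slfn14 and Slfnl1 had at most 2 counts in any library and were not tested.

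Between genotypes, no difference of a Schlafen member passed the test in the fit of the 8 group means, which does not use the library sets. With a term for the library set, Slfn9 was called on average (log2 difference -0.46, adjusted p = 0.000479), where 23.9% of all genes were called. With this term 1 member was called at 8 h (16.2% of all genes) and 3 at 24 h (19.5%). In the fit of group means, the edgeR quasi-likelihood test called 0 of 7 members at 0, 4, 8 or 24 h, where 1.52%, 1.24%, 2.2% and 1.19% of all genes were called, and 0 of 7 averaged over the times, where 6.27% were. At an unadjusted p under 0.05 the counts were 0 at each time and 1 for the average, and DESeq2 called 0 in each. That the test was not passed does not show that the genotypes were alike. The genotypes overlapped in all 28 pairs of member and time. This share was not counted over all genes, so the overlap cannot be read as a trait of the members. Slfn9 averaged over times was -0.46 ± 0.21 in labelled knock-out relative to wild-type cells (adjusted p = 0.246) and was the 1 member under that unadjusted p. The largest difference at a single time was also that of Slfn9, -0.85 ± 0.47 at 24 h (adjusted p = 0.5), where its level was 61.3 ± 20.2 CPM in labelled knock-out (SD, n = 2) and 111 ± 80.9 CPM in wild-type cells (SD, n = 3). Without library 12 it was -0.07, and over all fits that left out 1 library it ranged from -1.23 to -0.07. Of the interferon-stimulated genes 0 of 30 were called in the average. Slfn5 at 0 h differed by 0.42 ± 0.27 (adjusted p = 0.6). The interaction of genotype and LPS was called for 0 of 7 members at 4, 8 and 24 h and jointly, where 0.0442%, 0.0442%, 0% and 0.111% of all genes were. At an unadjusted p under 0.05 it was 0 of 7 at each time, and DESeq2 called 0 of 7 in each. Its largest estimate was that of Slfn4 at 24 h, -1.02 ± 0.73 (adjusted p = 0.644), which ranged from -1.45 without library 3 to -0.38 without library 14, was -0.66 without library 12, and did not pass the test in any of these 23 fits.

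**Figure D4:**
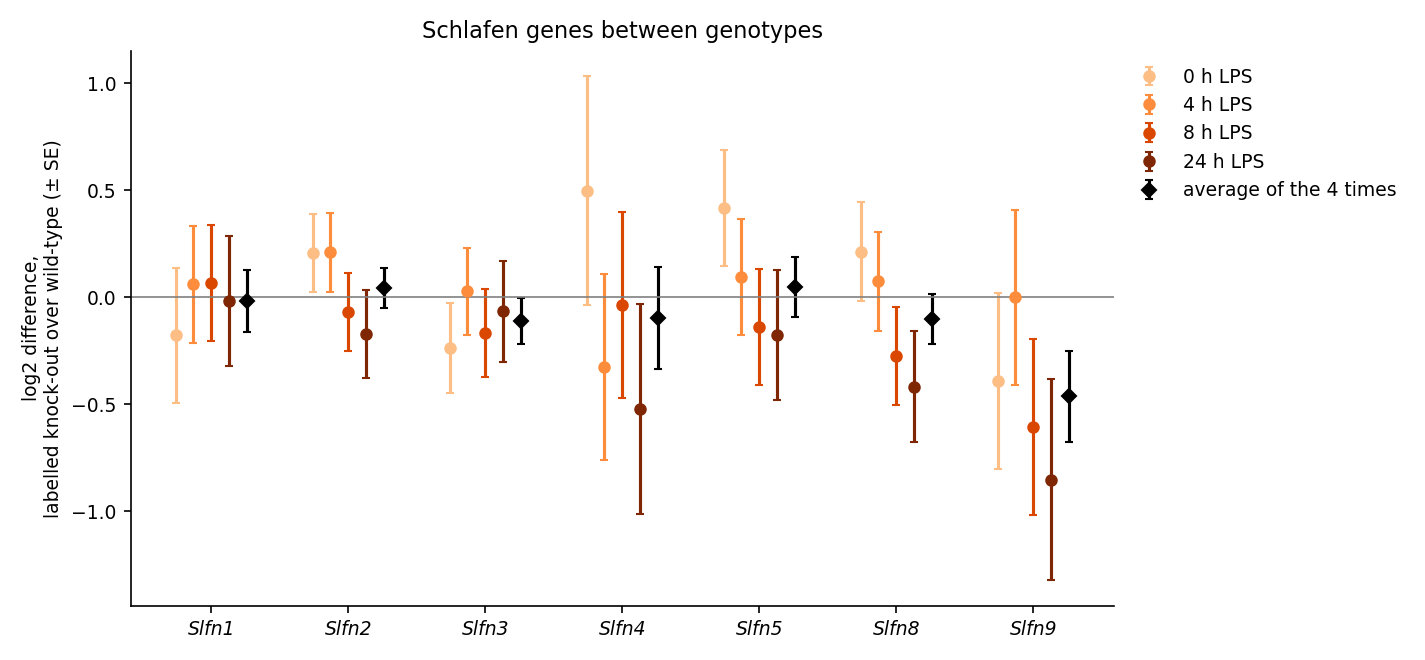
Log2 fold change of labelled knock-out over wild-type cells (y axis) with SE bars for each member (x axis), at 0, 4, 8 and 24 h of LPS (light to dark circles) and averaged over them (black diamonds). The estimates lie on both sides of 0 and none was called in this fit. Slfn9 has the largest average difference, which was called with a term for the library set, as were 23.9% of all genes.

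Some markers of other cells were called between genotypes. Averaged over times, 6 of 11 tested neutrophil markers and 4 of 6 stromal markers were called higher in labelled knock-out cells, as were 3.13% of all genes, with Ltf at 1.32 ± 0.09 and Col3a1 at 4.76 ± 0.89. Summed neutrophil markers ranged from 49.7 to 498 CPM in labelled knock-out and from 46.6 to 419 CPM in wild-type libraries. Csf3r alone reached 413.9 CPM, while Ngp did not exceed 63.8 CPM and Ly6g 0.153 CPM in any library. Csf3r was called higher at 4 h over 0 h, by 1.54 ± 0.54 in labelled knock-out and 1.74 ± 0.55 in wild-type cells. Summed stromal markers ranged from 1.4 to 67.4 CPM in labelled knock-out and from 1.14 to 8.46 CPM in wild-type libraries. Over time, 10 of 11 tested neutrophil markers were lower at 24 h than at 0 h in labelled knock-out and 9 of 11 in wild-type cells. Of B cell genes, Ighm ranged from 0.134 to 177.2 CPM over all libraries, while Cd79a did not exceed 0.287 CPM. The part of these cell markers in the member values was not tested.

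The place of the second-set library within its group is given for each member. Across the 14 pairs of member and genotype at 4 h, the second-set library was the lowest of its group in 12, at 8 h it was the highest in 10 and the lowest in 3, and at 24 h it was the highest in 12 and the lowest in 2. At 0 h it was the highest in 7 and the lowest in 6. The labelled knock-out group at 24 h has 2 libraries, so that its second-set library is always the highest or the lowest. For Slfn4 at 4 h the second-set library had 0.34 times the mean of the other libraries in labelled knock-out and 0.37 times in wild-type cells. For Slfn9 at 24 h the ratios were 1.61 in labelled knock-out and 3.19 in wild-type cells.

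**Figure D5:**
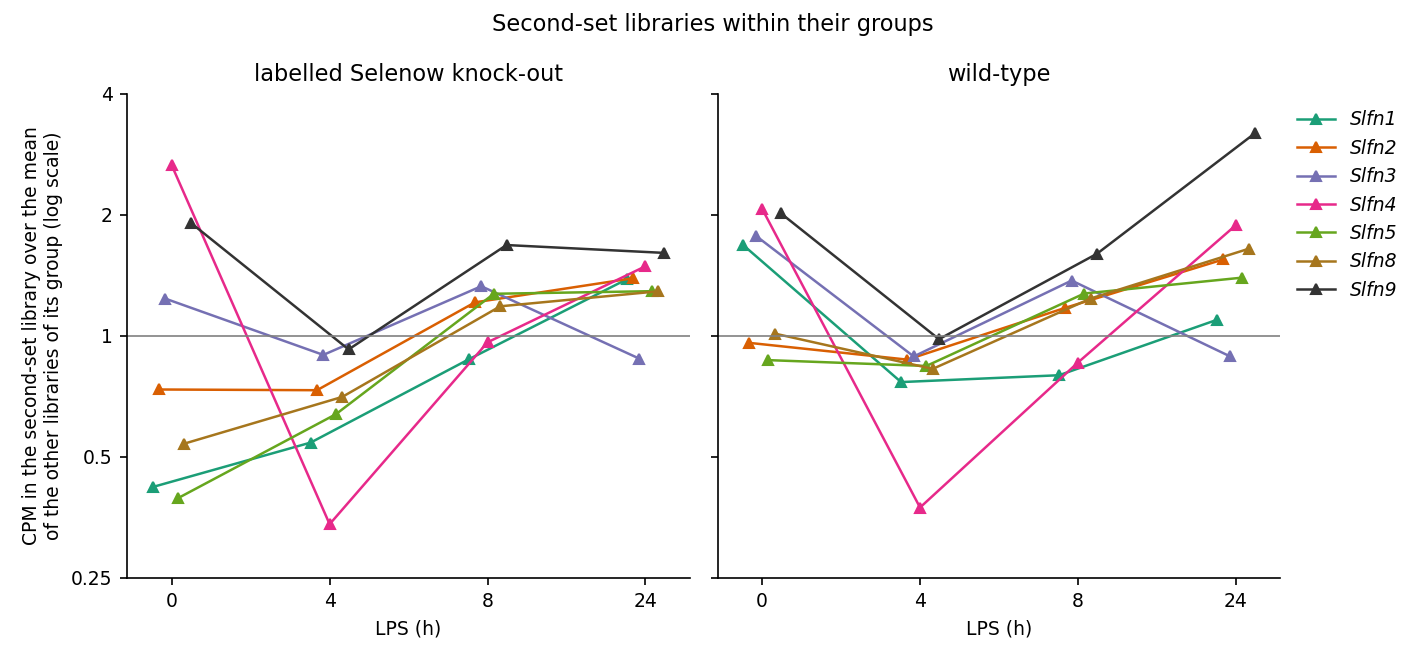
Ratio of the second-set library to the mean of the other libraries of its group (y axis, log scale) for each member at 0, 4, 8 and 24 h (x axis), labelled knock-out left of wild-type. All points lie below 1 at 4 h and 12 of 14 lie above 1 at 24 h.

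Fits that take the sets into account gave other genotype calls, and because the sets were found in these data their p may be too small. Outside the second set, each labelled knock-out group holds 1 of the libraries 13, 16, 19 and 22, whose Selenow lay inside the wild-type range or, for library 19, below it, and at 24 h library 22 is the only one and is assumed to vary like the other groups. In the 15 libraries outside the second set, 3 members were called at 0 h, where 6.56% of genes were: Slfn5 was higher in labelled knock-out by 0.68 (adjusted p = 0.00108), Slfn8 by 0.46 (adjusted p = 0.0228) and Slfn2 by 0.33 (adjusted p = 0.02). The interaction was then called for Slfn2, Slfn5 and Slfn8 at 8 h and at 24 h, where 9.12% and 4.31% of genes were called, with log2 estimates of -0.42, -0.83 and -0.72 at 8 h. Slfn9 at 8 h had a log2 difference of -0.65 (adjusted p = 0.0096, 14.5% of genes called), and Slfn2 at 4 h had one of 0.29 (adjusted p = 0.045, 3.69%), with 0 members called at 24 h (5.46%). The interaction was called for 0 members at 4 h (0.372% of genes) and jointly for 3 (9.92%). With a term for the set at each time, Slfn9 was called at 8 h (-0.61, adjusted p = 0.0126, 16.2% of genes), and Slfn4 (-0.61), Slfn8 (-0.48) and Slfn9 (-0.86) at 24 h (19.5% of genes). Slfn9 averaged over times was called in both, at -0.36 (adjusted p = 0.00865, 13.3% of genes) in the 15 libraries and at -0.46 (adjusted p = 0.000479, 23.9%) with the term. With the term, 0 members were called at 0 h (13.6% of genes) and at 4 h (4.66%). The interaction with the term was called for 0 members at 4 h (0.874% of genes) and 8 h (12.7%), for Slfn2 (-0.45), Slfn4 (-1.07) and Slfn8 (-0.64) at 24 h (16.4%), and jointly for 2 (19.5%).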

How the data were processed

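Counts of read pairs per gene were deposited for 23 libraries (total RNA, 100 base paired-end reads, per the labels), raw and unnormalised, made by the authors with featureCounts 2.0.1 per the file headers from HISAT2 alignments (version not given in the sources used here) to GRCm38 with Ensembl release 101. Per the file headers strand was ignored, pairs over more than 1 gene added to each of those genes, and multi-mapping reads were left out. Symbols for 55141 of 55401 identifiers came from GENCODE M21. One fit of 8 group means used edgeR 4.0.16 in R 4.3.3 with TMM scaling, filterByExpr (18083 genes) and the quasi-likelihood F-test. Adjusted p-values are Benjamini-Hochberg over all genes, two-sided, called under 0.05, and the SE is |log2 fold change| / sqrt(F). CPM are TMM-scaled and CPM per kb use the exonic length in the table. Members, lists and motifs were chosen with earlier results of these data known. Genes named are the members, other Schlafen genes, Selenow, the 3 nearest profiles per member among genes of at least 5 CPM, called genes within 500 kb, and list genes. Alternatives were DESeq2 1.42.0, limma-voom (limma 3.58.1), RLE and upper-quartile scaling, other filters and thresholds, fits of only the compared groups, each library left out in turn, leaving out libraries 13, 16, 19 and 22, and fits aware of the library sets, which were found from shared deviations from group means. The procedure was checked on simulated counts. The submitters' processing notes also name DESeq2, of which no deposited table was used here. A further marker gene is not reported here. Reads were not analysed here.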

Additional observations from a re-analysis of the deposited data

How the results depend on the processing

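No paired analysis was possible because no replicate number occurs in more than 1 group, and the library sets, which the labels do not give, enter only the fits named for them. Over 2450 results for time within a genotype, 2327 kept their direction and side of the threshold, 107 lost the call, 11 gained it and 5 reversed. For genotype, only the averages and the results at single times picked for the text were followed. Of these 528 of 553 kept both, 11 gained the call and 14 reversed. For genotype by LPS, also only for results picked for the text, 236 of 245 kept both and 9 gained the call. Members called at 8 over 4 h in wild-type cells were 4, and 2 at an adjusted p under 0.01 and 2 against a fold of 1.5. At 24 over 8 h they were 6 in wild-type cells, against 2 and 0, and 6 in labelled knock-out cells, against 1 and 0. Without libraries 13, 16, 19 and 22, fewer members and fewer of all genes were called in labelled knock-out cells at 8 over 4 h and at 24 over 8 h. Slfn4 at 24 over 8 h was then 0.0543. Leaving out 1 library gave 2 to 5 called at 8 over 4 h in wild-type cells (2 without library 5 or 8), 2 to 6 at 24 over 8 h in wild-type cells (2 without library 9, 3 without 10 or 11), and 0 to 6 in labelled knock-out cells (0 without library 22, 2 without 20, 3 without 23). The counts at 24 over 0 h were 5 to 6 in labelled knock-out and 5 to 7 in wild-type cells, and 5 to 6 at 8 over 4 h in labelled knock-out cells. Those for genotype and interaction stayed at 0, and the cause of these changes was not tested. Slfn4 at 24 over 8 h ranged from -0.44 to 0.14 in labelled knock-out and from -0.0161 to 0.58 in wild-type cells. It was -0.10 in wild-type cells in the 15 libraries outside the second set and -0.0053 with a term for the set. For the genotype average these ranges were -0.12 to 0.0607 for Slfn1, -0.0208 to 0.10 for Slfn2, -0.26 to 0.0117 for Slfn4 and -0.0092 to 0.13 for Slfn5, and Slfn9 at 0 h ranged over -0.77 to 0.0252. In the 15 libraries Slfn1 averaged 0.10 and Slfn8 0.0013, and with the term Slfn5 averaged -0.0024. In the 15 libraries, genotype calls were 3 at 0 h, 1 at 4 h, 1 at 8 h and 1 averaged, and interaction calls 3 at 8 h, 3 at 24 h and 3 jointly. With the term, genotype calls were 1 at 8 h (16.2% of all genes), 3 at 24 h (19.5%) and 1 averaged (23.9%). Interaction calls with it were 3 at 24 h (16.4%) and 2 jointly (19.5%). A count of 0 limits a level to 0.0769 CPM of the unscaled total.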
